A study of Sus scrofa with 21 samples.

Results

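Solute carrier (SLC) genes encode membrane transporters, and 215 of them were measured in whole blood of DD and Large White (LW) pigs. They were chosen by name, as every gene whose array name starts with SLC and a digit, other than SLC4A1, SLC11A1, SLC11A2 and SLC40A1. The array carries 48527 features in all, where a feature is a gene name or, for an unnamed probe, the probe itself. The 215 genes include 24 mitochondrial carriers of subfamily SLC25, which are described apart from the other 191. DD pigs (labelled SLAdd) are an inbred minipig line that is homozygous at the pig's major histocompatibility locus, and LW is a commercial breed. Both were 60 days old and ate a standard diet without restriction, and the labels name no other treatment. One one-colour array was hybridized per pig. The 10 DD pigs came from 5 sows and the 11 LW pigs from 6, and their arrays were spread over 3 chips, each with both breeds. Litter-mates share a sow, and the DD pigs are 1 line kept inbred in 1 herd.

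SLC proteins move amino acids, sugars, organic acids, nucleosides, metals, ions and vitamins across the cell surface and organelle membranes, mostly driven by gradients of their substrate or of a coupled ion and not by ATP hydrolysis. The SLC25 carriers sit in the inner mitochondrial membrane and exchange ADP for ATP, phosphate and metabolites between the matrix and the cytosol. In blood, red cells and their precursors, leukocytes and platelets each have their own set, such as the serotonin transporter of platelets. In a whole-blood sample, fewer cells of a type and less RNA per cell cannot be told apart.

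The values below are normalized log2 intensities, and a log2 difference is DD minus LW from a limma model with breed, chip and litter. After the dimmest 25% of probes were removed, 177 of the 215 SLC genes were tested and 38 were not, SLC25A25 among these. Of the 177, 93 were well above background on every array and 7 on none. Levels of different genes are not compared, because different probes do not share a scale. The DD arrays were on average dimmer. Brightness, the log2 of an array's 75th percentile of signal, averaged 7.53 ± 0.54 (SD, n = 10) among DD arrays against 8.22 ± 0.38 (SD, n = 11) among LW arrays. The gap was small on chip 1 (DD mean 7.95, LW mean 8.02), wider on chip 2 (DD mean 7.55, LW mean 8.31) and widest on chip 3 (DD mean 7.09, LW mean 8.36). Of the marker lists for blood cells, 1 of 4 erythroid genes was higher in DD pigs, 2 of 6 T cell genes were lower, 1 of 3 monocyte genes was lower, 1 of 4 platelet genes was lower, and 0 of 3 B cell, 0 of 4 cytotoxic and 0 of 5 neutrophil genes passed the limma test at an adjusted p of 0.05. The mean level of the erythroid list ranged from 12.15 to 14.10 in DD pigs and from 11.69 to 13.04 in LW pigs, and that of the T cell list from 8.88 to 9.98 and from 9.5 to 10.21.

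SLC genes differed between the breeds about as often as other genes did. In limma with Benjamini-Hochberg adjustment over all 35578 features, 33 of the 177 SLC genes (18.6%) passed an adjusted p of 0.05, where 21.0% of all features did. Of these, 18 were higher in DD pigs, against 11.4% of all features, and 15 were lower, against 9.57%. Among features with a symbol in RefSeq, the shares were 22.0% in all, 10.4% higher and 11.7% lower. The median log2 difference over the 177 genes was 0.04, and over all features it was -0.04. The differences were small: the median size among the 33 genes was 0.60, none of the 177 genes was called with a size of 1 or more, where 1.44% of all features were, and none had breeds that did not overlap, which 0.382% of all features had. Scaling each array to its 75th percentile, which moved the median of all features from -0.04 to 0.06, gave 24 higher and 10 lower SLC genes.

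The calls rested on some pigs and on the chips. Without 1 pig, between 11 (without LW_18) and 62 (without DD_06) SLC genes were called, where 6.34% and 33.0% of all features were. Without the litter term, whose estimated correlation was negative (-0.108), 23 were called, 12 higher and 11 lower, and 14.4% of all features. Among the counts of higher genes, those without DD_06 (40), DD_21 (6), LW_18 (5), DD_23, LW_12 or LW_22 (9 each) and DD_01, DD_19, LW_05 or LW_24 (11 each) were over 1.5 times away from 18, and among those of lower genes, the counts without LW_18 (6), DD_21 (8) and DD_23 (9) were that far from 15. A set of 10 genes was called whichever pig was left out: SLC2A6, SLC5A10, SLC39A13 and SLC46A3 among the higher ones and SLC4A11, SLC5A4, SLC24A3, SLC25A4, SLC25A14 and SLC39A10 among the lower ones. Without chip 3, 2 SLC genes were called, SLC39A13 and SLC46A3, where 1.51% of all features were. Without a chip term 9 were called, where 5.42% of all features were. With array brightness as a covariate, 3 were called, SLC39A13, SLC46A3 and SLC2A6, where 2.19% of all features were.

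**Figure D1:**
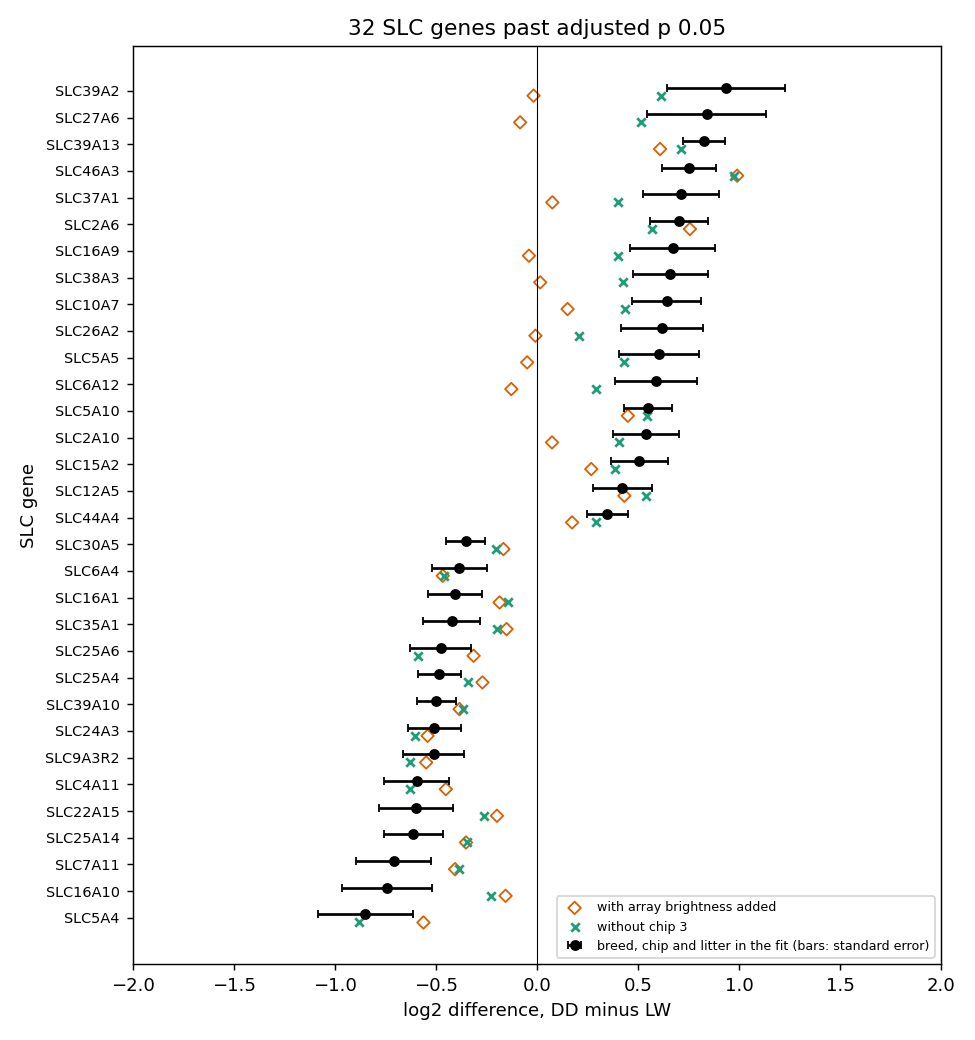
SLC genes past an adjusted p of 0.05 (32 of the 33), one row per gene, with the log2 difference between DD and LW pigs on the x axis (black points, bars are the standard error), the same difference with array brightness in the model (open diamonds) and without chip 3 (crosses). Among the higher genes the diamond is farthest from 0 in SLC46A3 (0.99), SLC2A6 (0.76) and SLC39A13 (0.61).

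SLC39A13, SLC46A3 and SLC2A6 were the higher genes that stood under both of these settings or under brightness alone. SLC39A13 is a zinc transporter of intracellular vesicles and the early secretory pathway. In DD pigs its lowest, median and highest log2 intensities were 9.17, 9.60 and 10.04, and in LW pigs they were 8.22, 8.82 and 9.61. Of the 10 DD pigs, 5 lay above every LW pig, and the breeds overlapped through the lower DD and the higher LW pigs. Its log2 difference was 0.83 (SE 0.11, limma adjusted p = 2.9e-05), 1.77-fold higher, on 1 probe whose strand was not tested. These values are the probe's, and they are not shown to be those of the gene's own mRNA. On chips 1, 2 and 3 the log2 difference measured 0.55, 0.89 and 1.05. It was 0.61 with brightness in the model (limma adjusted p = 0.00581) and 0.71 without chip 3 (limma adjusted p = 0.0208). In the pig assembly Sscrofa11.1, RefSeq places SLC39A13 on chromosome 2, from 15194028 to 15202936.

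SLC46A3 is a transporter of the lysosomal membrane. Its lowest, median and highest values were 6.27, 6.98 and 7.52 in DD pigs and 5.69, 6.06 and 6.66 in LW pigs. Here 9 of 10 DD pigs lay above all LW pigs, and the exception was the pig with the dimmest array, DD_21. The log2 difference was 0.75 (SE 0.13, limma adjusted p = 0.000982), 1.68-fold. Unlike most of the higher genes it was large on chip 1 (1.01) and chip 2 (0.92) and small on chip 3 (0.25), and it was 0.99 with brightness in the model (limma adjusted p = 0.0013). Both of its probes showed it, with log2 differences of 0.64 and 0.86. SLC46A3 lies on chromosome 11, from 5983198 to 6000728, in Sscrofa11.1.

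SLC2A6, a glucose transporter family member of lysosomes that is known from macrophages, ranged over 8.05, 8.73 and 9.35 (lowest, median, highest) in DD pigs and over 7.73, 8.02 and 8.39 in LW pigs. The values of 8 of 10 DD pigs were above those of all LW pigs. Its log2 difference was 0.70 (SE 0.14, limma adjusted p = 0.0034), a 1.63-fold higher level, with 0.76 and 0.64 on its single probes. The difference was 0.65, 0.56 and 0.95 on chips 1, 2 and 3. It was not called without chip 3 (0.57, limma adjusted p = 0.172).

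**Figure D2:**
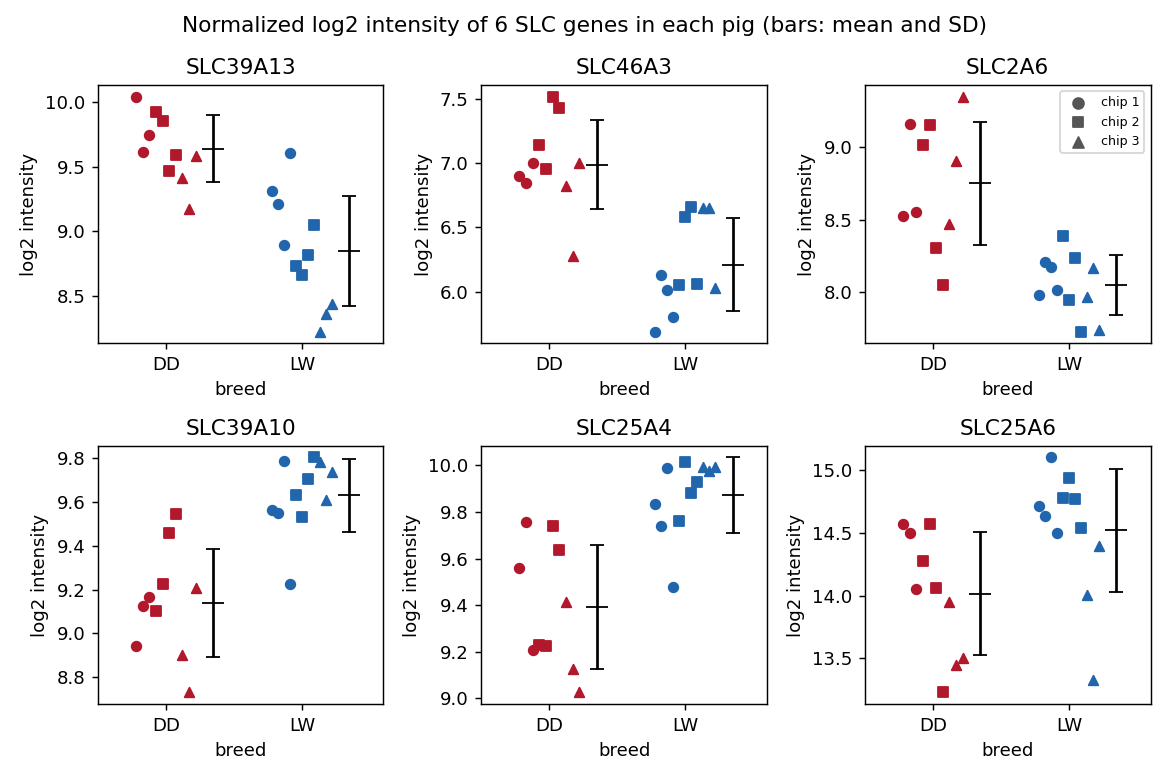
Normalized log2 intensity of 6 SLC genes in each of 10 DD pigs (red) and 11 LW pigs (blue), with the marker shape giving the chip and the bars the mean and SD of the breed. In SLC46A3, 9 of 10 DD pigs are above all LW pigs, and in SLC39A10, 8 of 10 DD pigs are below all LW pigs.

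The probes behind the first 2 of these genes are shown because SLC39A13 was read by 1 probe and SLC46A3 by 2 that do not overlap. The array's 60-base probes, 5′ to 3′ as the scanner files give them, were:
SLC39A13 probe O11661: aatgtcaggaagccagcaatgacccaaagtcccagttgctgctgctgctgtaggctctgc
SLC46A3 probe A_72_P131741: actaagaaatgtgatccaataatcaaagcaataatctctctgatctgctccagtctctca
SLC46A3 probe O2852: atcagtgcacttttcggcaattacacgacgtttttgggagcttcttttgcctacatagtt
The array mixes a set of probes with IDs of A_72 and a set with IDs of O and a number, and the O set holds probes of either strand. The probes of SLC44A4, a carrier of choline and thiamine pyrophosphate, show this. Its probe O10451 is the reverse complement of its probe A_72_P255967 over 43 bases, in capitals here:
SLC44A4 probe A_72_P255967: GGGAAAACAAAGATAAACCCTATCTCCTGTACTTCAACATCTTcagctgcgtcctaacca
SLC44A4 probe O10451: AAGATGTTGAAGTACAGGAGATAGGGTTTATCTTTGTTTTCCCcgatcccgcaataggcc
The pair lies on opposite strands, so both cannot read the same RNA. Of 9532 O probes, 164 were complementary to another probe of the array over at least 25 bases. For a gene with only O probes, SLC39A13, SLC39A2 and SLC27A6 among them, the strand was not tested. The values of such genes are not shown to be those of the gene's own mRNA. In all, 64 of the 177 SLC genes rested on O probes alone, and 5 of the 18 higher and 3 of the 15 lower genes did. Over the probes kept, 7.77% of the O probes and 7.25% of the A_72 probes were higher in DD pigs, and 6.43% and 7.64% were lower.

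Zinc and other divalent metal carriers were tested for 23 genes, of which 2 were higher, 2 were lower and 19 did not pass (17.4% called, against 21.0% of all features). SLC39A10, a zinc importer of the cell surface, was the lower gene with the smallest adjusted p. Its lowest, median and highest values were 8.73, 9.15 and 9.54 in DD pigs and 9.23, 9.63 and 9.80 in LW pigs, and 8 of 10 DD pigs lay below all LW pigs. The log2 difference was -0.50 (SE 0.10, limma adjusted p = 0.00205), 1.41-fold lower, and it was -0.45, -0.34 and -0.76 on chips 1, 2 and 3. With brightness in the model it was -0.38 (limma adjusted p = 0.106), on its 1 kept probe, an O probe. SLC30A5, which loads zinc into the Golgi, was lower by 3 probes that ranged from -0.44 to -0.28 (mean -0.35, limma adjusted p = 0.0197). SLC39A2, a further zinc importer, had the highest log2 difference of any SLC gene, 0.94 (SE 0.29, limma adjusted p = 0.0306). It was read by 1 O probe, whose strand was not tested, so this difference is not shown to be that of the gene's own mRNA. Its values ranged from 5.92 to 10.04 in DD pigs and from 5.08 to 8.12 in LW pigs, and with brightness in the model the difference was -0.02.

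Amino acid and peptide carriers were the role with the most genes tested, 29. Of these, 22 had a positive difference, where 16073 of all 35578 features did, and the median over the 29 was 0.24. Of the 29, 4 were higher, 2 were lower and 23 did not pass, so 20.7% were called, against 21.0% of all features. The higher ones included SLC38A3, a glutamine transporter, SLC6A12, which carries betaine, and SLC15A2, a peptide transporter. SLC38A3 ran from 7.51 to 11.00 in DD pigs and from 7.08 to 9.29 in LW pigs, with medians of 8.45 and 7.95 and a log2 difference of 0.66 (SE 0.18, limma adjusted p = 0.0216). With brightness in the model the differences were 0.02 in SLC38A3, -0.13 in SLC6A12 and 0.27 in SLC15A2, and none of them passed (limma adjusted p = 0.996, 0.816 and 0.635). The 2 probes of SLC15A2 gave 0.19 and 0.82. The lower ones were SLC7A11 and SLC6A4. SLC7A11, the light chain of the cystine and glutamate exchanger, had a median of 5.49 in DD pigs (4.37 to 5.88) and 5.99 in LW pigs (5.12 to 6.59), a log2 difference of -0.71 (SE 0.19, limma adjusted p = 0.0166) and chip values of -0.35, -0.45 and -1.44. SLC6A4, the serotonin transporter of platelets, was lower by 0.38 on the log2 scale (limma adjusted p = 0.0498), on a probe that was well above background in 3 of 10 DD and 7 of 11 LW pigs. The platelet list beside it had 1 of 4 genes lower, PPBP (log2 difference -0.94, limma adjusted p = 0.0413), and a mean level between 9.32 and 10.99 in DD pigs and between 9.91 and 11.36 in LW pigs, and its part in the SLC6A4 difference was not tested. The glutamine transporter SLC1A5 (0.13, SE 0.10), the heavy chain SLC3A2 (0.29, SE 0.13) and the histidine and peptide carrier SLC15A4 (0.32, SE 0.14) of immune cells did not pass, with limma adjusted p-values of 0.379, 0.0945 and 0.111. The 3 probes of SLC3A2 ran from -0.14 to 0.77.

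Sugar carriers and their subfamilies held 5 higher and 1 lower gene among 18 tested (33.3% called, against 21.0% of all features). Of the 18, 14 had a positive difference, where 16073 of all 35578 features did, and the median was 0.10. Beside SLC2A6, the higher genes were SLC2A10, a facilitative glucose transporter, SLC37A1, a glucose-6-phosphate exchanger of the endoplasmic reticulum, SLC5A10, a sodium-coupled sugar transporter, and SLC5A5, the iodide transporter, which belongs to the same subfamily by sequence and carries no sugar. In SLC5A10, 7 of 10 DD pigs were above all LW pigs, with medians of 7.98 and 7.14 and a log2 difference of 0.55 (SE 0.12, limma adjusted p = 0.00478). Its 3 probes gave 0.34, 0.43 and 0.88, and the first 2 of these have the same sequence. Values of SLC37A1 were 8.60, 9.32 and 11.40 (lowest, median, highest) in DD pigs and 8.04, 9.16 and 9.88 in LW pigs, with differences of 0.00, 0.75 and 1.46 on chips 1, 2 and 3. With brightness in the model, SLC37A1 was at 0.08, SLC2A10 at 0.07 and SLC5A5 at -0.05 (limma adjusted p = 0.957, 0.97 and 0.985). The lower gene was SLC5A4, a member of the sodium and glucose cotransporter family. It had the lowest log2 difference of the SLC genes, -0.85 (SE 0.24, limma adjusted p = 0.0214), with 6.02, 7.18 and 7.87 in DD pigs and 7.49, 7.81 and 8.43 in LW pigs, and 7 of 10 DD pigs lay below all LW pigs. Its 2 probes did not give the same size, with log2 differences of -1.42 and -0.28. SLC2A1, the main glucose transporter of many cells, did not pass (0.08, SE 0.09, limma adjusted p = 0.582).

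Carriers of organic acids, bases and bile acids had 2 higher and 3 lower genes among 24 tested (20.8% called, against 21.0% of all features). SLC16A1, which moves lactate and pyruvate with a proton, was lower on all 8 of its probes, with log2 differences from -0.56 to -0.22. Its values ran from 4.96 to 5.69 in DD pigs and from 5.08 to 6.55 in LW pigs, with medians of 5.44 and 5.78, and the mean over the probes was -0.40 (SE 0.13, limma adjusted p = 0.0382). The difference was -1.02 on chip 3 and -0.11 and -0.19 on chips 1 and 2. SLC16A3, the lactate exporter of glycolytic cells, had a difference of 0.17 (SE 0.12, limma adjusted p = 0.325) as the mean of 2 unlike probes. The first gave -0.08 and was well above background in 0 DD and 0 LW pigs. The other, an O probe, gave 0.42. SLC16A10, which carries aromatic amino acids, and SLC22A15, an organic cation and zwitterion carrier, were lower by 0.74 and 0.60 on the log2 scale (limma adjusted p = 0.0274 and 0.0293), and on chip 1 SLC16A10 was not (0.02). SLC16A9 and SLC10A7 were higher by 0.67 and 0.64 on the log2 scale (limma adjusted p = 0.0315 and 0.018). With brightness in the model these were -0.04 and 0.15 (limma adjusted p = 0.989 and 0.877), and SLC16A10 and SLC22A15 were at -0.15 and -0.20.

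Among 26 carriers of inorganic ions, 2 were higher and 2 lower (15.4% called, against 21.0% of all features). SLC4A11, a membrane transporter of protons and ammonia, was lower by 0.59 on the log2 scale (SE 0.16, limma adjusted p = 0.0185), with 5.37, 5.95 and 6.47 in DD pigs and 5.90, 6.66 and 7.39 in LW pigs. SLC24A3, a potassium-dependent sodium and calcium exchanger, fell by 0.51 on the log2 scale (SE 0.13, limma adjusted p = 0.0147), and 5 of 10 DD pigs lay below all LW pigs. SLC26A2, a sulfate transporter, was higher by 0.62 (limma adjusted p = 0.0361), on a probe well above background in 6 of 10 DD and 9 of 11 LW pigs. With brightness in the model its difference was -0.01 (limma adjusted p = 0.998). SLC12A5, a potassium and chloride cotransporter, passed the test but was well above background in 0 of 10 DD and 0 of 11 LW pigs, so no fold is given.

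Vitamin, fatty acid, choline and heme carriers had 3 higher and 0 lower genes among 13 tested (23.1% called, against 21.0% of all features), by limma at an adjusted p of 0.05. Beside SLC46A3 these were SLC44A4 and SLC27A6, a long-chain fatty acid carrier. SLC44A4 was higher by 0.35 on the log2 scale (limma adjusted p = 0.0256) over 6 probes of both strands, 2 of which have the same sequence. SLC27A6 was read by an O probe alone, whose strand was not tested, so its values are not shown to be those of its own mRNA. Its values were 6.95, 8.47 and 10.50 in DD pigs and 6.11, 7.94 and 8.80 in LW pigs. Its log2 difference of 0.84 (SE 0.29, limma adjusted p = 0.0465) became -0.08 with brightness in the model. Among 17 carriers of nucleosides, nucleotide sugars and acetyl-CoA, 13 had a negative difference, where 19505 of all 35578 features did. Of the 17, 1 was lower (5.88%, against 21.0% of all features called), SLC35A1, which brings CMP-sialic acid into the Golgi (-0.42, limma adjusted p = 0.0393). The names also took in 4 genes that are no carriers and are only named after one. Of these, SLC9A3R2, a scaffold protein, was lower by 0.51 on the log2 scale (limma adjusted p = 0.0264).

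**Figure D3:**
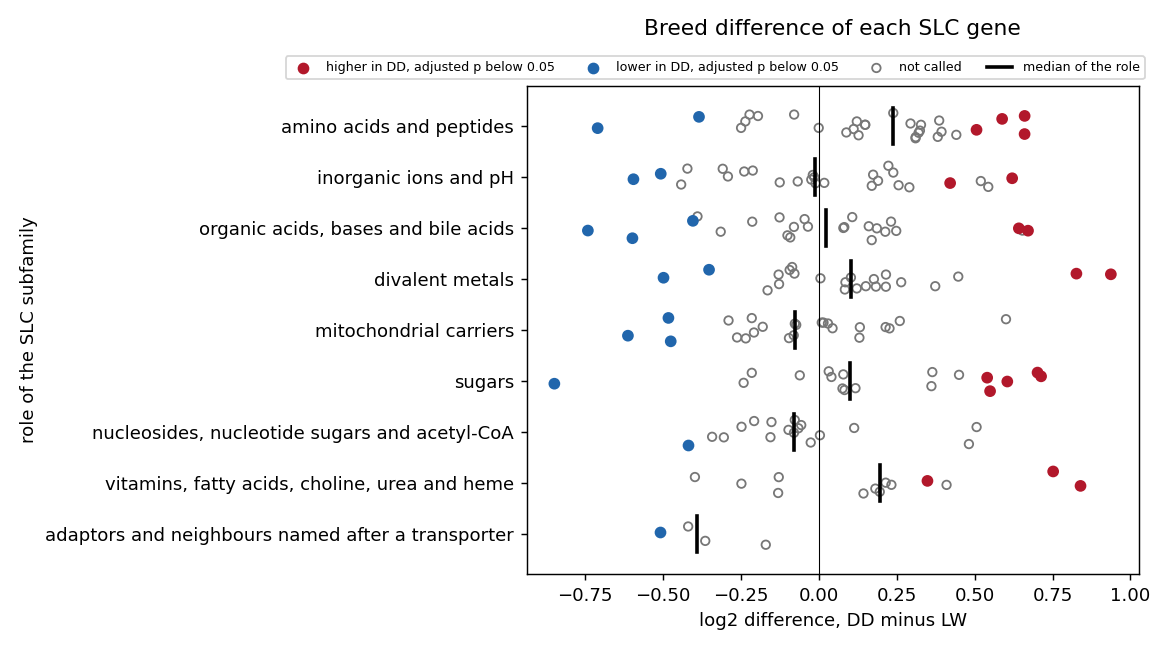
Log2 difference between DD and LW pigs of the 177 tested SLC genes (one point each), by what their subfamily carries, with filled points past an adjusted p of 0.05 and a black line at the median of the role. The medians run from -0.08 in mitochondrial and nucleoside carriers to 0.24 in amino acid carriers, with -0.39 in the 4 genes that are named after a transporter.

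Of the mitochondrial carriers, 23 of 24 were tested, 3 were lower in DD pigs and 0 were higher, so 13.0% were called, against 21.0% of all features. SLC25A4 and SLC25A6 are ADP/ATP carriers, and SLC25A14 is a relative of the uncoupling proteins. SLC25A4 had 9.02, 9.32 and 9.76 (lowest, median, highest) in DD pigs and 9.48, 9.93 and 10.02 in LW pigs. In it, 6 of 10 DD pigs lay below all LW pigs. Its log2 difference was -0.48 (SE 0.10, limma adjusted p = 0.00512), at -0.52 and -0.45 on its 2 probes and -0.25, -0.44 and -0.80 on chips 1, 2 and 3. SLC25A6 had 13.23, 14.05 and 14.57 in DD pigs and 13.33, 14.63 and 15.10 in LW pigs. Its difference of -0.47 (SE 0.15, limma adjusted p = 0.0326) was much alike in size over 7 probes, from -0.52 to -0.45. Probes A_72_P518065, A_72_P529263 and A_72_P539354 did not pass on their own (SE 0.31, 0.29 and 0.31, limma adjusted p = 0.357, 0.321 and 0.306). On chip 1 the difference of SLC25A6 was -0.36, on chip 2 -0.72 and on chip 3 -0.28. The ADP/ATP carriers are close in sequence, and whether their probes are crossed by each other's RNA was not tested. SLC25A14 had medians of 5.86 in DD pigs and 6.53 in LW pigs and a log2 difference of -0.61 (SE 0.15, limma adjusted p = 0.00973), from -0.27 on chip 1 to -1.18 on chip 3.

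The other 20 tested SLC25 genes did not pass, and the median over all 23 was -0.08. The phosphate carrier SLC25A3 had a difference of -0.26 (SE 0.15, limma adjusted p = 0.219), negative on all 11 probes, from -0.34 to -0.15. SLC25A39, a carrier known from heme synthesis and mitochondrial glutathione, had medians of 17.31 in DD pigs and 17.26 in LW pigs (0.13, SE 0.14, limma adjusted p = 0.511). SLC25A28, an iron importer of mitochondria, had the highest value of the subfamily, 0.60, with an SE of 0.33 and a limma adjusted p of 0.187. Without DD_06, 5 SLC25 genes were called, and without chip 3 or with brightness in the model 0 were. In these the limma counts over all SLC genes were 2 and 3.

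The size of the differences varied by chip. Of the 18 higher genes, 15 had their smallest difference on chip 1 and 15 had their largest on chip 3, and the medians were 0.11, 0.72 and 1.07 on chips 1, 2 and 3. The medians of the 15 lower genes were -0.30, -0.45 and -0.80. Over all features, called or not, the medians were 0.00, -0.02 and -0.10. Of the 18 higher genes, 13 had DD_21, the pig with the dimmest array (brightness 6.56), as their highest DD value. None of these counts was made over all called features, so the pattern is not shown to be particular to SLC genes.

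**Figure D4:**
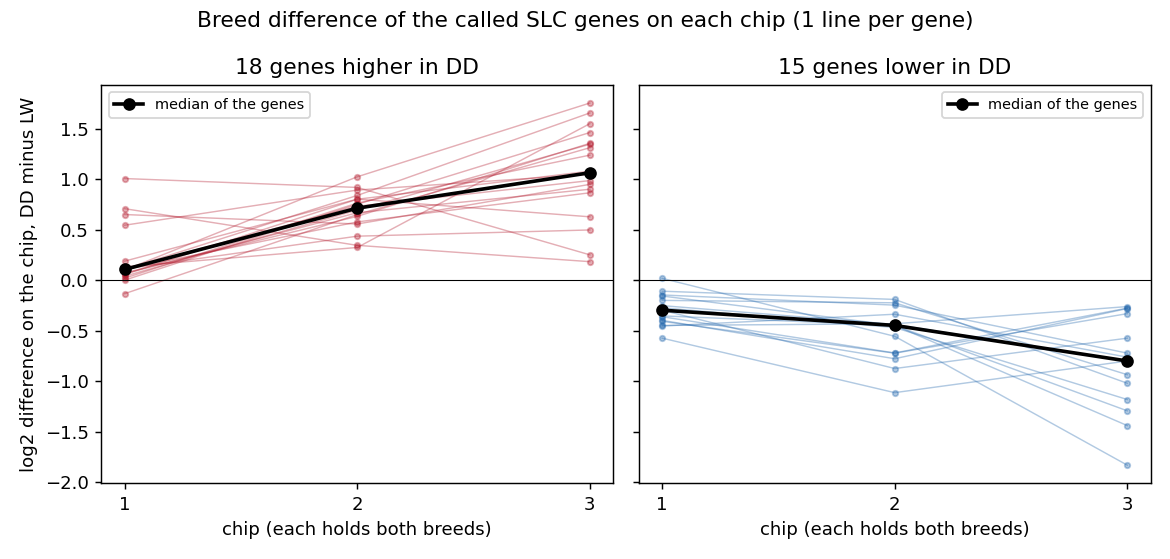
Log2 difference between DD and LW pigs within each chip, with 1 line per called SLC gene, 18 higher (left) and 15 lower (right) in DD pigs, and the median in black. The higher genes rise from a median of 0.11 on chip 1 to 1.07 on chip 3, and the brightness gap between the breeds also grew from chip 1 to chip 3.

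The differences were mostly smaller with brightness in the model. The median difference of the 18 higher genes was then 0.08 in place of 0.65, 12 of them were below 0.5 times their size, and 7 were negative. The median of the 15 lower genes was -0.35 in place of -0.51, 5 were below 0.5 times their size, and 0 were positive. The smallest and largest of these lower values were -0.15 and -0.56. Breed and brightness cannot be fully told apart, since the mean DD array was dimmer on each chip.

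**Figure D5:**
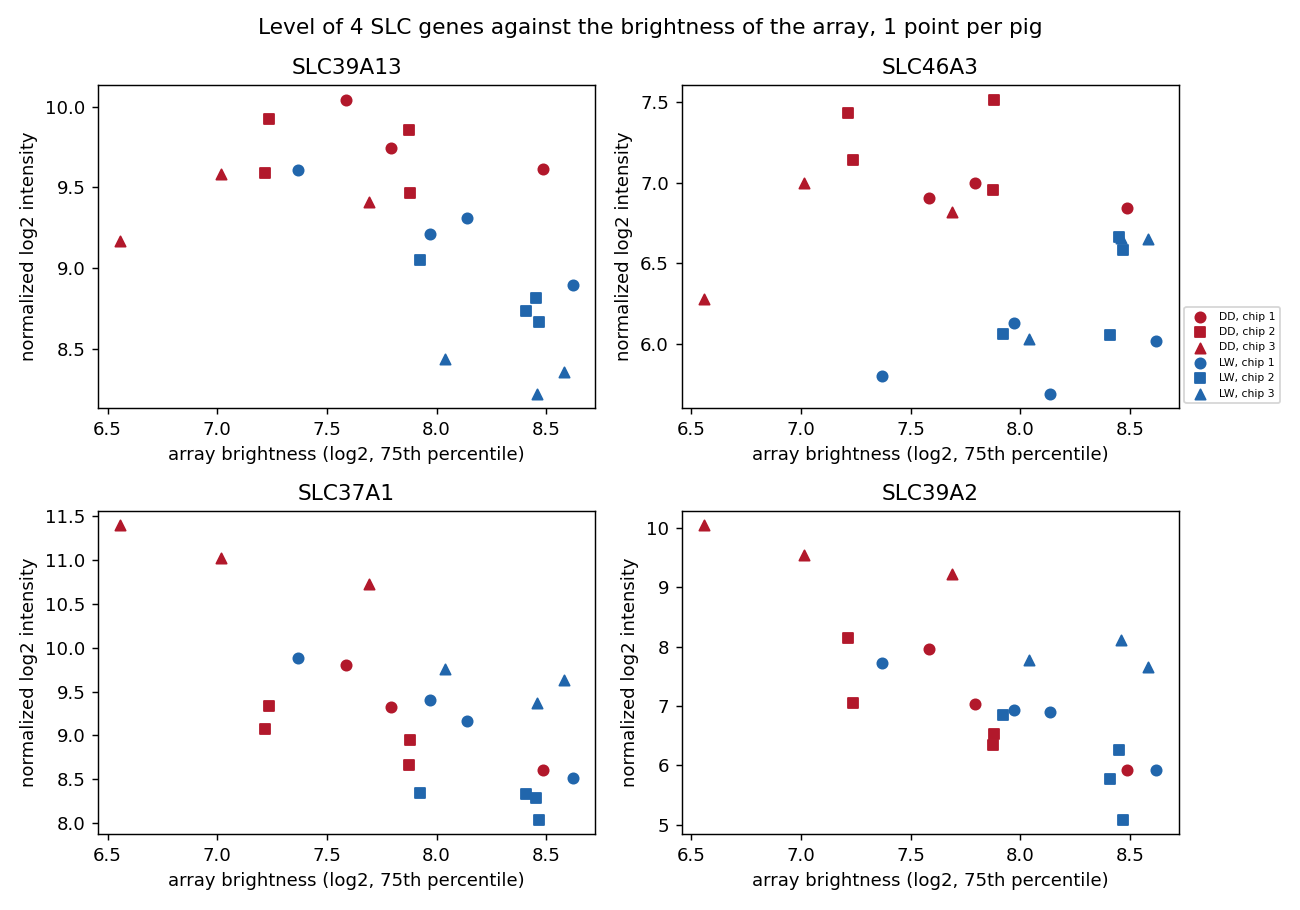
Normalized log2 intensity of 4 SLC genes (y axis) against the brightness of the array (x axis, log2 of the 75th percentile of signal), 1 point per pig, coloured by breed and shaped by chip. SLC37A1 and SLC39A2 reach their highest values, 11.40 and 10.04, on the dimmest array, while in SLC46A3 the DD pig with that array is the lowest DD pig, at 6.27.

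Other membrane transport genes, listed by family, changed in both directions. For the counts that follow, 11.4% of all features were higher and 9.57% were lower. Of 21 ABC transporters tested, 3 were higher and 1 was lower. The lower one was ABCA1, which exports cholesterol to lipoproteins, with a DD mean of 8.26 ± 0.54 (SD, n = 10), an LW mean of 9.23 ± 0.30 (SD, n = 11), a log2 difference of -0.98 (SE 0.18, limma adjusted p = 0.00136) and chip values of -0.69, -0.81 and -1.52. ABCG2, a urate and heme exporter, was higher by 0.50 on the log2 scale (limma adjusted p = 0.0264). Of 7 aquaporins, 3 were higher and 1 was lower, AQP3, a water and glycerol channel (-0.60, SE 0.15, limma adjusted p = 0.0116). The 5 SLCO organic anion transporters had 1 higher and 1 lower gene, and of 5 Na,K-ATPase subunits 1 was higher. Among 3 mitochondrial porins (VDAC1, VDAC2 and VDAC3), 2 carrier import chaperones and 4 transporter partners, 0 passed limma's adjusted p of 0.05. Each gene that passed in these lists had its largest difference on chip 3, as AQP5 did (0.23, 0.96 and 1.38 on chips 1, 2 and 3). These genes were not examined with brightness in the model or without chip 3.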

How the data were processed

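Whole-blood total RNA was labelled with Cy3 and hybridized to custom Agilent pig arrays, 1 per pig. The deposited scanner files hold unnormalized intensity, made with Agilent Feature Extraction 10.7.3.1. The deposited log2 values, which were used here, are the authors' matrix after normexp background correction and quantile normalization in limma, following removal of 3 arrays by the authors. Re-computed values correlated with it at r = 0.9984 to 0.9994 per array. No spot was saturated (0 on each array), and 44.7% to 63.8% of probes per array were well above background.

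The 25% of probes with the lowest mean were removed (45228 kept), and the probes of a gene name were averaged. Limma fitted breed and chip, with the sow as a random block (duplicateCorrelation, consensus -0.108) and eBayes, with Benjamini-Hochberg adjustment over 35578 features. Named genes were the 10 highest and 10 lowest differences with 1 sign on each chip, the called SLC25 genes and 16 genes listed by name, of which 9 were tested (27 genes in all, without 1 gene that is not reported here); the other called genes were named after their values were seen. The members and lists were chosen with earlier results of these data known. Positions are RefSeq's (213 of 215 symbols matched). Steps were tested on simulated data with a positive litter effect and no brightness gap between the breeds, so that test does not cover these 2 features of the data. Tools were R 4.3.3, limma 3.58.1, statmod 1.5.0, Python 3.11.15, pandas 2.3.3 and matplotlib 3.10.9. Alternatives were the scaling, offset, filters, probe choice, naming, model terms, chips and each pig left out.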

Additional observations from a re-analysis of the deposited data

Results flagged for a closer look

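Of the 27 SLC genes named by rule, 2 had a DD pig that lay far from the other DD pigs by Dixon's test at the 95% level (10 pigs). Chance gives about 1 in 20 such groups. SLC15A4, which carries histidine and peptides in endosomes, stood at 7.92 in DD_21, and the other DD pigs lay between 5.90 and 6.95. SLC3A2, the heavy chain of amino acid exchangers, stood at 5.79 in DD_16, and the other DD pigs lay between 6.34 and 6.87. DD_21 has the dimmest array (brightness 6.56), and its part in the SLC15A4 value was not tested. The 11 LW pigs were not tested in this way.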

How the results depend on the processing

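The counts of 18 higher, 15 lower and 3 SLC25 genes depended on the chips and on brightness. Without a filter on dim probes, 9 SLC genes were higher. Without a chip term, 4 were higher, 5 lower and 1 SLC25 gene changed. Without chip 2, 10 were higher and 9 lower, and without chip 3, 2 were higher, 0 lower and 0 SLC25 genes changed, where the fit has fewer pigs. With array brightness as a covariate, 3 were higher, 0 lower and 0 SLC25 genes changed, and 7 of the 18 higher genes turned negative, among them SLC16A9 (-0.039), SLC27A6 (-0.083), SLC39A2 (-0.016), SLC5A5 (-0.048), SLC6A12 (-0.126) and SLC26A2 (-0.007). Naming through accessions gave 5 SLC25 genes. Leaving out each pig gave 5 to 40 higher, 6 to 22 lower and 2 to 5 SLC25 genes. The cause of these shifts was not tested. The other settings kept these counts within 1.5 times, among them, chosen after seeing the data, leaving out the O probes (14 higher, 14 lower). Over all features, 7459 were called, with 4053 higher and 3406 lower, and 13058 had an unadjusted p below 0.05. That count was 4670 without the filter, 5106 without the litter term, 1929 without the chip term, 5052 without chip 2, 537 without chip 3, 780 with brightness and 2254 to 11739 without 1 pig. The 75th percentile scaling gave 5125 higher and 2271 lower. SLC39A13 and SLC46A3 passed in each of the other settings that had their probes. No paired analysis was possible because DD and LW pigs share no replicate number. Signal over background limits the dim genes: 7 tested SLC genes were above background on no array. All p-values measure the spread between these pigs, which come from few litters.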

Other observations

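Through accessions and not only the names of the scanner files, 196 SLC genes were tested in place of 177 and 38 were called in place of 33, of which 33 were the same genes. Of the 38, 20 were higher and 18 lower in DD pigs, and the share of all features called was 20.9%. Of the 70 SLC genes with at least 2 kept probes, 24 had probes of opposite sign, and 0 of these were among the 33 called genes (limma, adjusted p of 0.05). This 0 is no evidence for the calls, because opposite signs cancel in the mean of the probes. Besides, 17 of the 33 called genes rested on 1 kept probe. The median within-breed SD of the SLC genes was 0.41 on the log2 scale, as it was over all features, with 0.45 in DD pigs and 0.35 in LW pigs.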
